A study of Mus musculus with 8 samples.

Results

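The genes described here were 8 genes of cholesterol synthesis and its control, Hmgcs1, Idi1, Fdft1, Sqle, Cyp51, Dhcr7, Srebf2 and Insig1, followed through the progression of mouse skin squamous cell carcinoma (SCC). Each was found by its symbol in the array's annotation, and all 8 were found among the 17097 genes measured. The annotation tied 12 probe sets to the 8 symbols, and each gene is represented by the probe set with the highest mean over all 8 arrays. The arrays measured RNA of tumour cells sorted for a6-integrin and CD34 after blood and endothelial cells had been depleted, a population that the labels call cancer stem cells. Of the 8 arrays, 4 came from poorly differentiated SCC, written PD/S-SCC in the labels and PD-SCC here, and 4 from well differentiated SCC (WD-SCC). Within each stage, lineage OT7 gave 2 arrays, lineage OT14 gave 1 and lineage OT15 gave 1. All lineages, of strain background FVB/C57/Bl6, began as spontaneous or DMBA-TPA induced SCCs of K14-HPV16 mice, in which the keratin 14 promoter drives papillomavirus 16 genes in basal keratinocytes. DMBA is a mutagen and TPA a tumour promoter. Each lineage was grafted orthotopically and passed on serially in nude mice, which lack a thymus and so most T cells but keep other host cells. Whether both OT7 arrays of 1 stage stem from different tumours is not stated in the labels. The p-values therefore reflect sample-to-sample spread that may be technical, and with 8 arrays the precision is limited.

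Cells make cholesterol from acetyl-CoA through mevalonate, isoprenoid diphosphates, squalene and lanosterol. The transcription factor SREBP2, encoded by Srebf2, turns on most genes of the route when sterols in the endoplasmic reticulum are low. INSIG1 holds the SCAP-SREBP complex in that membrane when sterols are high, and its own gene is an SREBP target, which closes a feedback loop. In the epidermis, cholesterol is one of the main lipids of the permeability barrier, and its sulfate is a product of differentiating keratinocytes.

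SREBPs bind sterol regulatory elements near transcription starts, usually beside sites for the factors NF-Y and Sp1. RefSeq windows (build GRCm38.p6) were matched for 6 of the 8 genes, all but Sqle and Fdft1, and the 250 bases before each annotated start were searched on both strands. The motifs were TCACNCCAC, a form of the sterol regulatory element, CCAAT, the NF-Y box, and GGGCGG, the GC box of Sp1. No matches overlapped each other in the windows of these 6 genes, 8 in all because Dhcr7 has several annotated starts. TCACNCCAC was in 1 of the 8 windows, that of Hmgcs1, as TCACCCCAC at bases -137 to -129 from the start, and in 346 of all 32851 RefSeq windows of this length (1.05%). CCAAT was in 6 of the 8 windows and in 33.8% of all windows. GGGCGG was in 7 of the 8 windows and in 32.7% of all windows. The windows lacking CCAAT or GGGCGG were those of other Dhcr7 starts, of which the one farthest upstream held GGGCGG alone and the next held neither. A match describes letters only and is no evidence of binding. The windows below are given for the gene with the sterol regulatory element form (Hmgcs1, chr13:119690101-119690350), the enzyme that varied most between arrays (Dhcr7, the annotated start farthest downstream, chr7:143829964-143830213) and the regulator with its feedback partner (Srebf2, chr15:82147019-82147268, and Insig1, chr5:28071162-28071411). All lie on the plus strand, and capitals mark the motif matches.
Hmgcs1: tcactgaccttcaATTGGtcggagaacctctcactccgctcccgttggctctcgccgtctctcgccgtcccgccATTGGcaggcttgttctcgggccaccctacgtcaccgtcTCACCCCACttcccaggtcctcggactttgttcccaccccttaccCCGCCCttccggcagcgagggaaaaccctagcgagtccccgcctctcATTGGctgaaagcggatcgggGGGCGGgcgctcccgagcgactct
Dhcr7: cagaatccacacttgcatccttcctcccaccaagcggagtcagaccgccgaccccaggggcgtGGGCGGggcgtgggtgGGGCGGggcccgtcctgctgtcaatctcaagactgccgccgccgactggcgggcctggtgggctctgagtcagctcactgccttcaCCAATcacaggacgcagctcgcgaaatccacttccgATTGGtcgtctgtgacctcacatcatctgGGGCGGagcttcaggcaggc
Srebf2: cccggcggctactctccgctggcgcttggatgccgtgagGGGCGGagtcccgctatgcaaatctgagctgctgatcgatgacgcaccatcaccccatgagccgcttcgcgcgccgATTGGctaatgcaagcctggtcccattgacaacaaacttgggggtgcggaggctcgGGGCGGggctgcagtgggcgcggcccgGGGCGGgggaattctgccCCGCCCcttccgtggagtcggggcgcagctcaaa
Insig1: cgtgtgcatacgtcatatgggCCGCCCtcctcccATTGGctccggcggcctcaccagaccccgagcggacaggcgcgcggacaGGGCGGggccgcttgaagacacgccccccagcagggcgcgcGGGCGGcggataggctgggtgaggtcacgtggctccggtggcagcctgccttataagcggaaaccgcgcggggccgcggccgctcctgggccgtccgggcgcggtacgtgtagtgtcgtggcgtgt

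All values are log2 RMA values as deposited, and they differ between probe sets for reasons other than RNA amount, so levels are set only within a gene. The stage difference is PD-SCC minus WD-SCC from limma with lineage as a block, and adjusted p are Benjamini-Hochberg values over all genes with a threshold of 0.05. Among all 17097 genes, 1331 rose and 823 fell in PD-SCC, and the median difference was -0.06. That split depended on the scaling, with 864 higher and 864 lower after cyclic loess and 1102 higher and 1463 lower after scaling arrays to the 75th percentile, which moved the median of all genes to -0.26. The brightest of 15 bacterial control probe sets that received no spike, taken as the limit of a dim signal and called the control below, averaged 3.69 ± 0.09 on PD-SCC arrays and 4.11 ± 0.22 on WD-SCC arrays (SD, n = 4 each; two-sided exact permutation test, p = 0.0286, the smallest that 4 against 4 allows, and 0.0571 adjusted over 4 array measures). The median of all probe sets was 3.68 ± 0.02 on PD-SCC arrays and 3.74 ± 0.02 on WD-SCC arrays (exact permutation p = 0.0286, adjusted 0.0571). The 3' minus 5' signal of Gapdh and of Actb, a measure of RNA quality, gave exact permutation p of 0.886 and 0.343. The sorted cells' label was checked against marker lists. Itga6 averaged 6.95 ± 0.73 in PD-SCC and 7.25 ± 1.31 in WD-SCC, and Cd34 averaged 7.71 ± 0.84 in PD-SCC and 6.04 ± 1.65 in WD-SCC. Of 8 keratinocyte markers, 7 fell in PD-SCC, with Krt5 at 4.16 ± 0.17 in PD-SCC and 11.26 ± 0.49 in WD-SCC, Cdh1 at or under the control on all 4 PD-SCC arrays, and Trp63 and Dsp above it on 1 PD-SCC array each. Of the other lists, 5 of 5 cell cycle genes rose. Falls were called for 1 of 8 haematopoietic (Cd68), 1 of 6 endothelial (Cldn5), 1 of 6 fibroblast (Thy1) and 1 of 4 adipocyte markers (Fabp4). Of the sebocyte markers, 0 of 4 passed the threshold (limma), and 1 of 4 had an unadjusted p under 0.05. Markers that were not called also carried signal. All 6 endothelial differences were negative, with a median of -1.32. Pecam1 averaged 3.84 ± 0.31 in PD-SCC and 6.50 ± 1.49 in WD-SCC, and Cdh5 5.54 ± 1.91 and 8.08 ± 2.55. Col1a1, a fibroblast marker, averaged 9.19 ± 0.91 in PD-SCC and 9.34 ± 2.76 in WD-SCC. The part of such cells in the results below was not tested.

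Across the 8 cholesterol synthesis genes, little separated the stages. Fdft1 rose in PD-SCC, no gene of the 8 fell, and 7 of the 8 did not pass the threshold. The 1 of 8 called (12.5%) stands against 12.6% of all genes called in either direction, 7.78% called higher in PD-SCC and 4.81% called lower, so the share was near that of all genes. All genes include many dim ones. Among the 9878 genes above the control on 4 or more arrays, fitted alone, 2407 were called, but 0 of the 7 cholesterol synthesis genes among them. The largest difference in size was 0.78, and 0 of 8 passed 1 in size, against 14.9% of all genes. In 7 of 8 genes the 95% interval of the difference lay within -1 and 1, as it did in 63.5% of all genes. Hmgcs1, which lay under the control on all arrays and so could show no difference, is counted among the 8 throughout, and without it the interval lay within those limits in 6 of 7. The stages overlapped for every one of the 8, whereas 24.1% of all genes had stage groups that did not overlap. In these bulk samples, fewer cells of a type and less RNA per cell cannot be told apart. The keratinocyte markers that fell and the cell cycle genes that rose separate the same arrays, and their part in any stage difference below was not tested. The median difference of the 8 genes was 0.22, and it was 0.05 after cyclic loess and 0.02 after scaling to the 75th percentile.

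**Figure D1:**
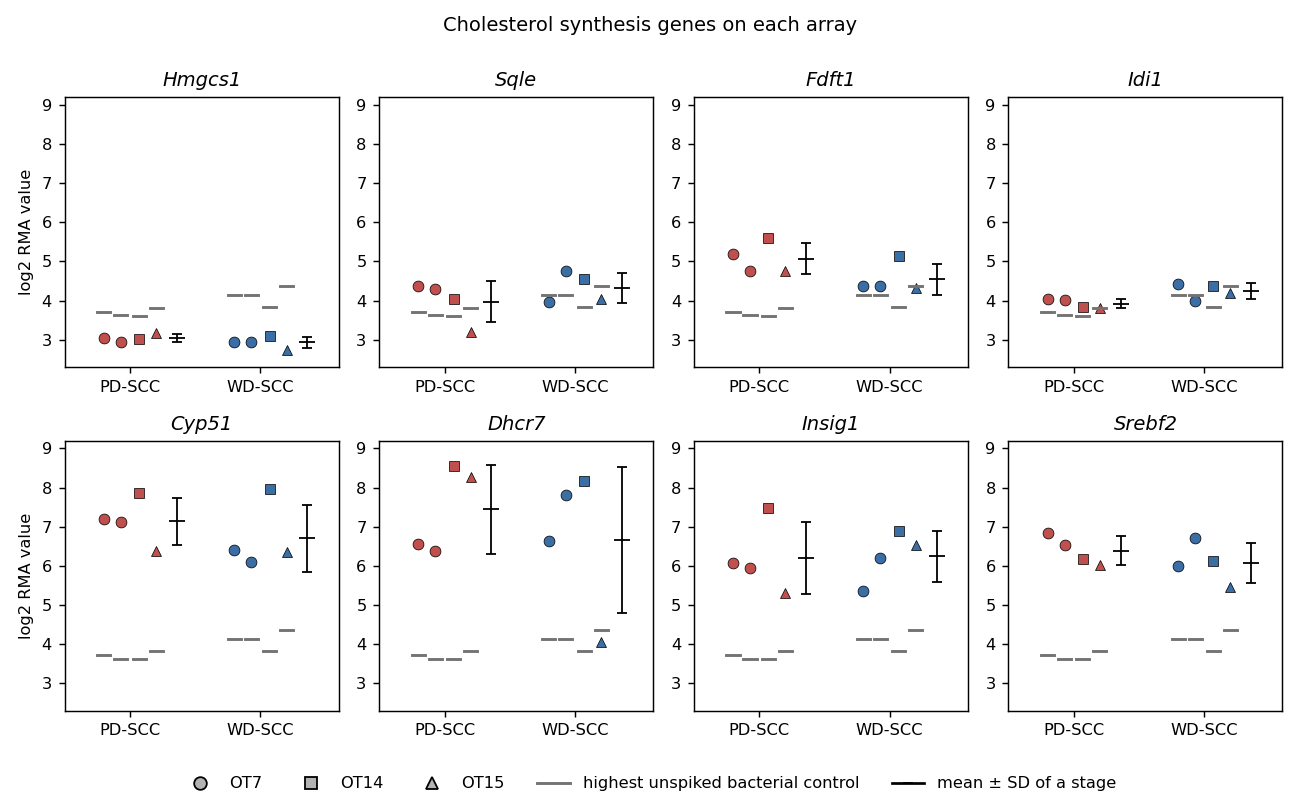
Log2 RMA value (vertical axis) of the 8 cholesterol synthesis genes on each of the 4 PD-SCC arrays (red, left) and 4 WD-SCC arrays (blue, right). Circles are OT7, squares OT14 and triangles OT15, grey dashes are the highest unspiked control of that array, and black bars are the mean ± SD of the stage; the stages overlap in every panel, and Hmgcs1 lies under the grey dashes throughout.

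In the mevalonate arm, neither Hmgcs1 nor Idi1 passed the threshold. Hmgcs1 encodes the cytosolic HMG-CoA synthase, an early enzyme of the route to mevalonate. Its single named probe set read 3.04 and 2.95 in OT7, 3.01 in OT14 and 3.17 in OT15 on PD-SCC arrays, against 2.95 and 2.94 in OT7, 3.09 in OT14 and 2.74 in OT15 on WD-SCC arrays. All 8 values lay under the control of their array, so no fold is given and no change could be seen at this signal by this probe set. Its fitted difference of 0.12 (SE 0.11, adjusted p = 0.509, limma) is therefore no measure of Hmgcs1. With values under the control raised to it, the gene takes the control's own stage difference of -0.42 (adjusted p = 0.00887, within a range up to 0.954 over 18 alternatives).

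Idi1 encodes the isopentenyl diphosphate isomerase, which supplies dimethylallyl diphosphate. Values were 4.04 and 4.02 in OT7, 3.83 in OT14 and 3.82 in OT15 on PD-SCC arrays, against 4.42 and 4.0 in OT7, 4.39 in OT14 and 4.18 in OT15 on WD-SCC arrays. Only the second OT7 WD-SCC array fell inside the PD-SCC range, and the difference was negative in all 3 lineages. The stage difference was -0.32 (SE 0.13, 95% interval -0.65 to 0.01), and it did not pass the threshold (adjusted p = 0.166, limma). Idi1 was dim, above the control on 4 of 4 PD-SCC arrays and 2 of 4 WD-SCC arrays. In OT15 the WD-SCC value lay under the control of its array, 4.37, and the PD-SCC value was close to its own, 3.81. Raising values under the control to it gave -0.40 with an adjusted p of 0.0239, the sole call among 19 alternatives, whose adjusted p ran up to 0.413. The difference was -0.53 after scaling to the 75th percentile (adjusted p = 0.0792) and -0.21 after cyclic loess (adjusted p = 0.413). Its second probe set was under the control on all arrays.

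Of the 4 enzymes of the squalene and sterol arm, Fdft1 rose in PD-SCC, while Sqle, Cyp51 and Dhcr7 did not pass the threshold. Fdft1 encodes squalene synthase, which joins 2 farnesyl diphosphates in the first step committed to sterols. Its values were 5.18 and 4.76 in OT7, 5.59 in OT14 and 4.75 in OT15 on PD-SCC arrays, against 4.37 and 4.36 in OT7, 5.14 in OT14 and 4.31 in OT15 on WD-SCC arrays. Within every lineage the PD-SCC values were higher, and the overlap of the stages came from the high OT14 WD-SCC array. Fdft1 was above the control on 4 of 4 PD-SCC arrays and 3 of 4 WD-SCC arrays. The OT15 WD-SCC value lay under the control of its array, 4.37, so the OT15 difference rests on a dim value. The differences were close to each other, 0.60 in OT7, 0.45 in OT14 and 0.44 in OT15. Together they gave 0.52 (SE 0.12, 95% interval 0.22 to 0.82), a 1.44-fold difference that passed the threshold narrowly (adjusted p = 0.0474, limma). The call was lost when any 1 of the 8 arrays was left out (adjusted p 0.0769 to 0.113, difference 0.42 to 0.59), without lineage as a block (adjusted p = 0.202), after cyclic loess (0.49, adjusted p = 0.0715) and after scaling to the 75th percentile (0.32, adjusted p = 0.185). Over all 19 alternatives the adjusted p ran between 0.0126 and 0.202, the lowest with values under the control raised to it, and the difference was positive in each.

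Sqle encodes squalene epoxidase, a rate-limiting enzyme that puts oxygen on squalene. Its values were 4.37 and 4.28 in OT7, 4.04 in OT14 and 3.21 in OT15 on PD-SCC arrays, against 3.96 and 4.75 in OT7, 4.56 in OT14 and 4.04 in OT15 on WD-SCC arrays. The OT15 PD-SCC array stood lowest, and the other 3 PD-SCC values lay inside the WD-SCC range. The difference was negative in all 3 lineages, at -0.03 in OT7, -0.52 in OT14 and -0.83 in OT15. Both OT15 values lay under the control of their array, 3.81 in PD-SCC and 4.37 in WD-SCC, so the OT15 difference is no measure of Sqle. With -0.35 for the stage (SE 0.23, 95% interval -0.92 to 0.22), Sqle did not pass the threshold (adjusted p = 0.336, limma). It was above the control on 3 of 4 PD-SCC and 2 of 4 WD-SCC arrays. The difference was -0.19 without either OT15 array (adjusted p = 0.650) and -0.58 without the first OT7 WD-SCC array (adjusted p = 0.0522), the ends of the range of adjusted p over 19 alternatives, and -0.56 after scaling to the 75th percentile (adjusted p = 0.0918).

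Cyp51 encodes lanosterol 14-alpha-demethylase, the first enzyme after the sterol ring closes. Its values were 7.20 and 7.12 in OT7, 7.85 in OT14 and 6.39 in OT15 on PD-SCC arrays, against 6.42 and 6.10 in OT7, 7.97 in OT14 and 6.34 in OT15 on WD-SCC arrays. OT14 was high at both stages, and the stages were apart in OT7 alone. The difference was 0.90 in OT7 (SE 0.17, adjusted p = 0.0607, limma), -0.11 in OT14 and 0.05 in OT15. The stage difference of 0.44 (SE 0.22, 95% interval -0.11 to 0.98) did not pass the threshold (adjusted p = 0.235, limma). It was 0.28 without the second OT7 WD-SCC array (adjusted p = 0.413), 0.28 with the OT7 arrays of a stage averaged (adjusted p = 0.554), 0.16 with the mean of its probe sets (adjusted p = 0.401), 0.23 after scaling to the 75th percentile (adjusted p = 0.386) and 0.066 after cyclic loess (adjusted p = 0.876), and the adjusted p over 19 alternatives lay between 0.133 and 0.876. Both other Cyp51 probe sets were under the control on all arrays.

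Dhcr7 encodes 7-dehydrocholesterol reductase, the enzyme of the last step to cholesterol, whose substrate is also the precursor of vitamin D made in skin. It varied most of the 8 genes, with an SD over all arrays of 1.48, against a median of 0.31 over all genes. Its values were 6.57 and 6.37 in OT7, 8.56 in OT14 and 8.27 in OT15 on PD-SCC arrays, against 6.62 and 7.81 in OT7, 8.16 in OT14 and 4.05 in OT15 on WD-SCC arrays. The OT15 WD-SCC array alone was under its control, which read 4.37, while the OT15 PD-SCC array was among the highest. The differences therefore ran in both directions, -0.75 in OT7 (SE 0.45), 0.41 in OT14 and a fitted 4.21 in OT15 (adjusted p = 0.0790 in OT15, limma). Against the control of that WD-SCC array, the OT15 difference was at least 3.90. The stage difference of 0.78 had an SE of 0.89 and a 95% interval of -1.41 to 2.97, so that neither direction is shown (adjusted p = 0.571, limma). Without either OT15 array it was -0.36 (adjusted p = 0.602), and the adjusted p over 19 alternatives lay between 0.380 and 0.825.

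Of the 2 regulators, neither passed the threshold. Srebf2, which encodes SREBP2, read 6.85 and 6.52 in OT7, 6.17 in OT14 and 6.02 in OT15 on PD-SCC arrays, against 5.99 and 6.70 in OT7, 6.11 in OT14 and 5.47 in OT15 on WD-SCC arrays. The stages overlapped, although the difference was positive in all 3 lineages, at 0.34 in OT7, 0.05 in OT14 and 0.56 in OT15. The stage difference was 0.32 (SE 0.20, 95% interval -0.16 to 0.81, adjusted p = 0.302, limma). It was 0.18 without the first OT7 WD-SCC array (adjusted p = 0.518), 0.12 after scaling to the 75th percentile (adjusted p = 0.638) and 0.024 after cyclic loess (adjusted p = 0.950), within a range of adjusted p of 0.154 to 0.950. A second Srebf2 probe set of lower signal separated the stages. It read 5.51 and 5.55 in OT7, 5.24 in OT14 and 5.22 in OT15 on PD-SCC arrays, against 5.14 and 5.12 in OT7, 5.15 in OT14 and 5.14 in OT15 on WD-SCC arrays. Every PD-SCC value of that probe set was above every WD-SCC value, and stage groups did not overlap in 24.1% of all genes. The probe set's difference of 0.24 (SE 0.10) did not pass the threshold either (adjusted p = 0.171 over all probe sets, limma). It was not fitted after other scalings. That probe set is singled out after its values were seen.

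Insig1, the sterol sensor's retention protein, read 6.07 and 5.95 in OT7, 7.47 in OT14 and 5.31 in OT15 on PD-SCC arrays, against 5.35 and 6.21 in OT7, 6.89 in OT14 and 6.53 in OT15 on WD-SCC arrays. OT14 was highest at both stages, and the ranges of the stages overlapped almost wholly. Differences of 0.23 in OT7 and 0.58 in OT14 stood against -1.22 in OT15. The stage difference was -0.04 (SE 0.35, 95% interval -0.90 to 0.81, adjusted p = 0.942, limma). It was 0.35 without either OT15 array (adjusted p = 0.431) and 0.07 without the second OT7 WD-SCC array (adjusted p = 0.922), and the adjusted p over 19 alternatives lay between 0.431 and 0.960.

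The lineages were compared next. Within lineages, 0 of 8 genes passed the threshold, against 9.07% of all genes in OT7, 0.842% in OT14 and 1.33% in OT15. That fit takes its 2 residual degrees of freedom from the OT7 arrays alone. Dhcr7 in OT15 was called under 4 of 6 alternatives, with adjusted p of 0.030 after scaling to the 75th percentile, 0.0445 among genes above the control, 0.0473 with a trended and robust prior and 0.0222 with values under the control raised to it. A common sign in all 3 lineages was shown by 4 of 8 genes (Fdft1 and Srebf2 positive, Sqle and Idi1 negative), against 51.3% of all genes. Except for Srebf2, the OT15 sign rests on dim values. Both Sqle values, and the WD-SCC values of Idi1 and Fdft1, lay under the control of their OT15 array. For the difference of the stage effect between lineages, 0% of all genes passed the threshold (limma), and 2043 genes, or 11.9%, had an unadjusted p under 0.05. Among the 8 genes, 2 had such a p, Dhcr7 (unadjusted p = 0.00878, adjusted p = 0.25) and Cyp51 (unadjusted p = 0.0457, adjusted p = 0.407).

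**Figure D2:**
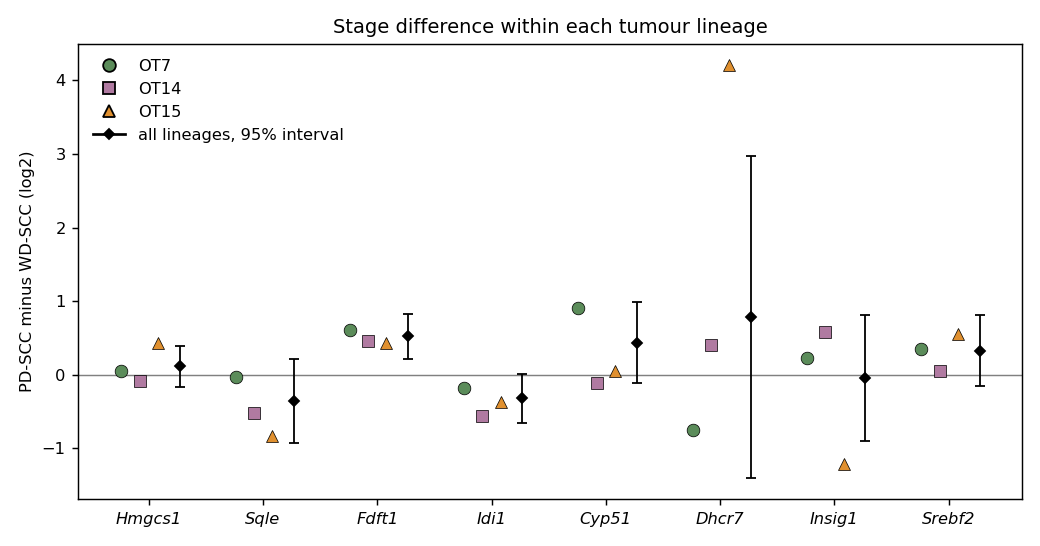
Stage difference of the 8 genes (PD-SCC minus WD-SCC, log2, vertical axis) within lineage OT7 (circles), OT14 (squares) and OT15 (triangles), with the estimate over all lineages and its 95% interval in black. The interval excludes 0 for Fdft1 alone, and the fitted OT15 difference of Dhcr7, 4.21, rests on a WD-SCC value under the control of its array, against which it was at least 3.90.

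Levels at either stage also varied between lineages. Fdft1, Cyp51, Dhcr7 and Insig1 had their highest value on the OT14 array at both stages, 4 of 8 genes, against 5.45% of all genes. This pattern was noticed after the values were seen and is a description. By the test of lineage beside stage, 0 of 8 genes and 0% of all genes passed the threshold (limma, adjusted p 0.477 to 0.982 for the 8). At an unadjusted p under 0.05 there were 3 of 8 (Fdft1, 0.00582; Cyp51, 0.00610; Srebf2, 0.0491) and 1251 genes in all, or 7.32%. The mean of the 8 centred profiles was 0.51 on the OT14 PD-SCC array and 0.48 on the OT14 WD-SCC array, against -0.19 on the OT15 PD-SCC array and -0.60 on the OT15 WD-SCC array. The 5 genes closest to that mean profile over the 8 arrays, of 11911 with enough spread, were Nus1, Ddias, Crcp, Tob2 and 1500011B03Rik, at root mean square distances of 0.13 to 0.17 on the log2 scale. Nus1 encodes a subunit of the enzyme that makes dolichol from isoprenoid units. Its place here rests on 1 of its 6 probe sets (0.17, adjusted p = 0.469), while 3 others rose in PD-SCC, by 1.12 (adjusted p = 0.0187), 0.79 (0.0165) and 0.58 (0.0458, limma over all probe sets). The 8 genes themselves lay 0.24 to 1.14 from their mean profile.

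The other genes of both enzyme arms came next. Over both arms, 17 of 21 genes could be measured, of which 2 rose, Fdft1 and Lbr, and 0 fell, a share of 11.8% that was near the 12.6% of all genes. Srebf1, the gene of SREBP1, was not analysed here, because no probe set named it alone. In the mevalonate arm 0 of 5 passed (limma; 0 of 5 at an unadjusted p under 0.05 too), with a median difference of -0.32, and Mvd, the mevalonate diphosphate decarboxylase gene, averaged 5.26 ± 0.39 in PD-SCC and 6.02 ± 0.76 in WD-SCC. In the squalene and sterol arm 2 of 12 rose, with a median of 0.26. Lbr encodes the lamin B receptor, an inner nuclear membrane protein that is also a sterol C14 reductase. It read 5.57 and 6.47 in OT7, 6.34 in OT14 and 4.84 in OT15 on PD-SCC arrays, and on WD-SCC arrays it was at or under the control, at 3.47 and 3.61 in OT7, 3.72 in OT14 and 3.52 in OT15. Lbr was thus at least 3.23-fold higher in PD-SCC (adjusted p = 0.0112, limma). The call was lost with the OT7 arrays of a stage averaged (adjusted p = 0.0667, range over alternatives 0.00481 to 0.0667). Tm7sf2, the gene of the other C14 reductase, averaged 3.78 ± 0.09 in PD-SCC and 3.90 ± 0.16 in WD-SCC and did not pass the threshold. The median of both arms was 0.12, and it was -0.09 after scaling to the 75th percentile, against -0.26 for all genes under that scaling.

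**Figure D3:**
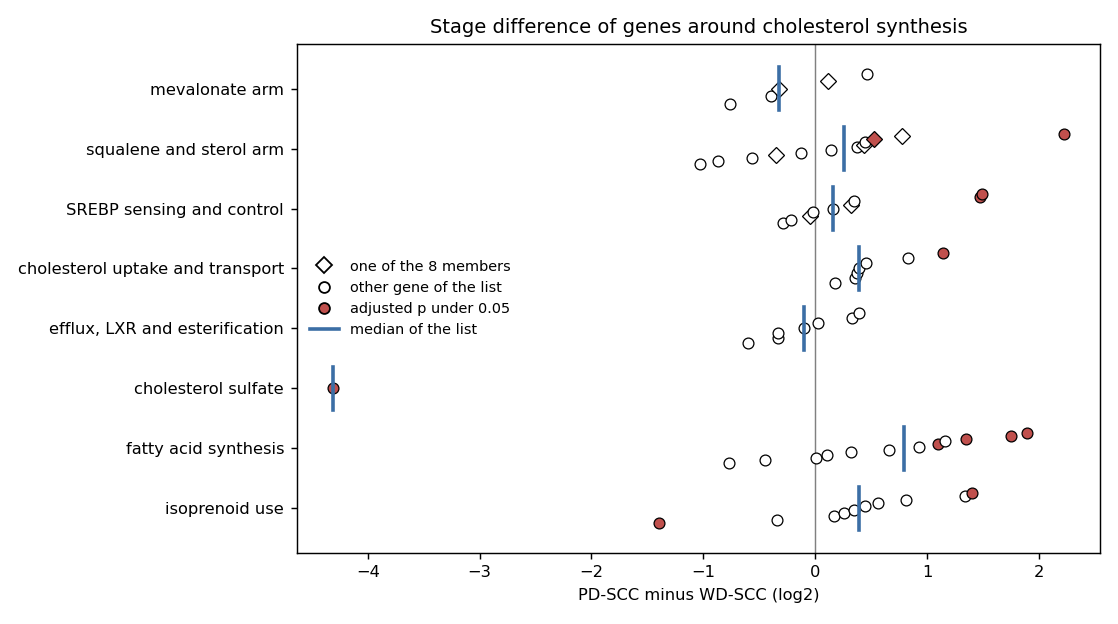
Stage difference (PD-SCC minus WD-SCC, log2, horizontal axis) of each measured gene in 8 lists around cholesterol synthesis. Diamonds are the 8 cholesterol synthesis genes, circles other genes, red marks an adjusted p under 0.05 and blue bars are list medians; the medians are -0.32 for the mevalonate arm, 0.26 for the squalene and sterol arm, 0.39 for uptake and 0.80 for fatty acid synthesis, with -0.06 over all genes, and Sult2b1 lies at -4.31.

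Among genes that sense sterols and control SREBP, 2 of 9 rose and 0 fell. The share called was 22.2%, against 12.6% of all genes called in either direction and 7.78% called higher. Their median difference was 0.16, and it was -0.04 after scaling to the 75th percentile. Mbtps1 encodes the site-1 protease that cuts SREBPs in the Golgi. It read 7.33 and 7.73 in OT7, 6.07 in OT14 and 6.56 in OT15 on PD-SCC arrays, against 6.05 and 6.01 in OT7, 4.62 in OT14 and 5.02 in OT15 on WD-SCC arrays. Each PD-SCC array was above all of WD-SCC, with a difference of 1.5 (SE 0.12, adjusted p = 0.00331, limma). Its other probe sets gave 0.76 (adjusted p = 0.06) and 0.14 (adjusted p = 0.783), so they disagree in size, and the call was lost without lineage as a block (adjusted p = 0.0727, range over alternatives 0.00274 to 0.0727). Rnf139, a ubiquitin ligase of the endoplasmic reticulum, read 5.86 and 6.19 in OT7, 5.44 in OT14 and 5.33 in OT15 on PD-SCC arrays, against 4.41 and 3.83 in OT7, 4.33 in OT14 and 4.36 in OT15 on WD-SCC arrays. Here too the stages did not overlap, as in 24.1% of all genes, with a difference of 1.48 (SE 0.24, adjusted p = 0.0186, limma). Rnf139 was above the control on 4 of 4 PD-SCC arrays and 2 of 4 WD-SCC arrays. Its other, dim probe set gave 0.16 (adjusted p = 0.554), and the adjusted p was 0.0657 without the first and 0.0511 without the second OT7 PD-SCC array, within a range of 0.00760 to 0.0836 over alternatives. Scap, the SREBP escort gene, averaged 4.44 ± 0.35 in PD-SCC and 4.73 ± 0.35 in WD-SCC (adjusted p = 0.393, limma). Insig2 averaged 6.90 ± 0.85 in PD-SCC and 6.92 ± 0.68 in WD-SCC (adjusted p = 0.971, limma).

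Of the cholesterol uptake and transport genes, 1 of 7 rose (14.3%, against 12.6% of all genes called in either direction). Scarb1, the HDL receptor gene, read 6.68 and 6.87 in OT7, 7.99 in OT14 and 6.68 in OT15 on PD-SCC arrays, against 5.60 and 6.12 in OT7, 6.75 in OT14 and 5.18 in OT15 on WD-SCC arrays. PD-SCC was higher within every lineage, by 1.14 in all (SE 0.17, adjusted p = 0.0150, limma). The adjusted p was 0.0536 without either OT14 array, 0.0527 without the second OT7 PD-SCC array and 0.105 without lineage as a block, within a range of 0.00887 to 0.105. All 7 differences of this list were positive, against 7211 of all 17097 genes, and 6 of 7 were after scaling to the 75th percentile. Vldlr, at 0.18, was above the control on 3 PD-SCC arrays and 0 WD-SCC arrays. Its other probe sets were dim too and gave -0.28 to 0.19. Npc1, the lysosomal cholesterol exporter gene, averaged 7.57 ± 0.51 in PD-SCC and 7.12 ± 0.51 in WD-SCC, without passing the threshold (adjusted p = 0.430, limma). For Npc2, which is not counted as risen, the probe sets disagreed. The one used gave 0.38 (adjusted p = 0.134), and the others gave 0.60 (0.128) and 1.70 (0.0375, limma over all probe sets).

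The widest RNA difference in these lists was that of Sult2b1, the 1 gene measured of 2 in the cholesterol sulfate list. Cholesterol sulfate itself was not measured. Sult2b1 encodes the sulfotransferase that makes cholesterol sulfate in differentiating keratinocytes. It read 4.30 and 4.23 in OT7, 3.88 in OT14 and 4.26 in OT15 on PD-SCC arrays, against 8.45 and 9.06 in OT7, 9.08 in OT14 and 7.33 in OT15 on WD-SCC arrays. Sult2b1 fell by 4.31 (SE 0.36, adjusted p = 0.00366, limma) and was called in all 19 alternatives. The keratinocyte markers moved with it, with the log2 of their summed linear values at 7.40 to 9.54 on PD-SCC arrays and 12.71 to 13.49 on WD-SCC arrays, and their part in the result was not tested.

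In fatty acid synthesis, which SREBP1 controls more than SREBP2, 4 of 12 genes rose and 0 fell. The share called was 33.3%, against 12.6% of all genes called in either direction and 7.78% called higher. The list was chosen with earlier results of these data known, so this contrast is a description. With the filter on dim genes, 5 genes of the list were called, and 2407 of 9878 genes in all. The median difference of this list was 0.80, against -0.06 over all genes. It was 0.48 after cyclic loess (all genes -0.01) and 0.59 after scaling to the 75th percentile (all genes -0.26). Whether this list differs from the sterol lists was not tested. Fasn, the fatty acid synthase gene, read 6.77 and 6.80 in OT7, 6.92 in OT14 and 6.48 in OT15 on PD-SCC arrays, against 5.09 and 5.57 in OT7, 6.03 in OT14 and 4.91 in OT15 on WD-SCC arrays. The stages did not overlap, and Fasn was 2.54-fold higher in PD-SCC (difference 1.34, SE 0.17, adjusted p = 0.00969, limma). Scd1, the gene of a stearoyl-CoA desaturase, read 6.93 and 6.41 in OT7, 6.38 in OT14 and 5.81 in OT15 on PD-SCC arrays, against 5.31 and 4.82 in OT7, 4.42 in OT14 and 3.97 in OT15 on WD-SCC arrays. Scd1 also had no overlap, with a difference of 1.75 (SE 0.18, adjusted p = 0.00591, limma), and its second probe set gave 3.20. A lack of overlap was found in 24.1% of all genes. On WD-SCC arrays the first probe set was above the control on 3 of 4 and the second on 1 of 4. Elovl5, which elongates polyunsaturated chains, rose by 1.89 (SE 0.20, adjusted p = 0.00672, limma). Acaca, acetyl-CoA carboxylase, rose by 1.10 (SE 0.22, adjusted p = 0.0318, limma). The Acaca call was lost without the first (adjusted p = 0.0925) or second (0.0903) OT7 PD-SCC array, the first OT7 WD-SCC array (0.0667) or either OT15 array (0.0752), and after cyclic loess (0.0820), within a range of 0.00887 to 0.118. Acly, ATP citrate lyase, averaged 8.46 ± 0.32 in PD-SCC and 7.80 ± 0.53 in WD-SCC and did not pass (adjusted p = 0.136, limma). Of the 12 differences, 10 were positive and 2 negative. Fads2, at -0.77 (adjusted p = 0.108, limma), and Acss2, at -0.45 (adjusted p = 0.282, limma), went the other way without passing. Within OT7, the Fads2 difference was -1.33 (adjusted p = 0.0353, limma). Acss2 was above the control on 0 PD-SCC arrays and 1 WD-SCC array. With the OT7 arrays of a stage averaged, 1 of 12 genes of this list was called, and with values under the control raised to it 8 were.

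**Figure D4:**
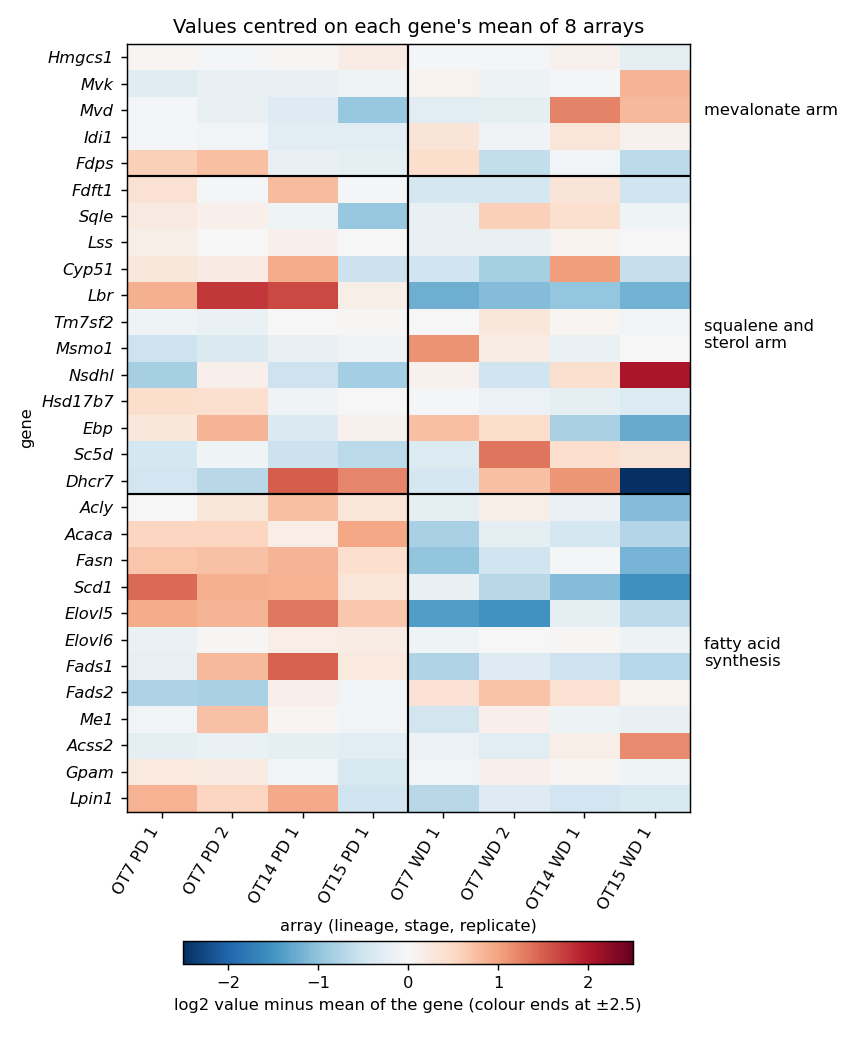
Each gene's log2 value minus its mean over all 8 arrays (colour, ending at ±2.5), with genes of the mevalonate arm, the squalene and sterol arm and fatty acid synthesis down the page and PD-SCC arrays left of WD-SCC arrays. Fasn, Scd1, Elovl5, Acaca and Lbr are red or pale red on PD-SCC arrays and blue or pale on WD-SCC arrays, while the cholesterol synthesis genes show no such split; Dhcr7 on the OT15 WD-SCC array, at 4.05, is past the end of the colour range.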

How the data were processed

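RNA of sorted cells from 4 PD-SCC and 4 WD-SCC samples was labelled with biotin and hybridised to Affymetrix arrays, per the labels' protocols. The authors deposited log2 values, with 1 value for each probe set on each array. RMA from the affy package is named in the submitters' processing notes. It subtracts background, makes the distributions of arrays alike and combines the probes of a set. No version, chip definition or joint set of arrays for RMA is given in the sources used here. RMA compresses differences of dim probe sets.

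The arrays carry 45141 probe sets. The platform annotation gives 28898 of them a single gene symbol, 551 several symbols and 15588 no symbol, and 104 are controls. Symbols were updated through RefSeq by Entrez number (99.1% of genes matched). The probe set with the highest mean stood for each of 17097 genes. The stage effect was fitted with limma 3.58.1 in R 4.3.3 (two-sided, lmFit then eBayes), lineage being a fixed block, with 4 residual degrees of freedom. The lineage effects came from the fit with 1 coefficient per lineage and stage, and the lineage difference from an F test beside stage. The pairing by lineage comes from the series design, whereas replicate numbers pair nothing. Deviations of PD-SCC and WD-SCC arrays from their stage means had a correlation over all genes of -0.04 in OT7, 0.02 in OT14 and 0.06 in OT15, and 1 OT7 WD-SCC array, which has no number, is called the first. Where all arrays of 1 stage had a gene no brighter than the control, its fold is given as a bound. Array measures had two-sided exact permutation tests.

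The 8 genes and all lists were chosen with earlier results of these data known. Named genes were the 8, Srebf1, Fasn and Scd1 whatever their values (other genes of this rule are not reported here), up to 4 further called genes per list with the smallest p, and the 5 genes nearest the mean centred profile among those with an SD of at least 0.5 times that of the profile; others were chosen for their roles with their values in view. The fits were tested on simulated data. The 19 alternatives were other blocks, averaged OT7 arrays, each array left out, filters and probe set choices, 2 scalings, a raised lower limit, a robust prior and array weights. Plots used Python 3.11.15 and matplotlib 3.10.9.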

Additional observations from a re-analysis of the deposited data

Results flagged for a closer look

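In 5 of the 38 groups of 4 arrays examined (19 named genes at each stage), 1 array stood apart, with a gap to its nearest neighbour that was a larger share of the whole range of the group than Dixon's 95% limit for 4 values allows. Chance gives about 1 in 20 such groups. Fdft1 was 5.139 on the OT14 WD-SCC array, against 4.314 to 4.373 on the other WD-SCC arrays, a gap of 0.928 of the range. Cyp51 was 7.966 on the OT14 WD-SCC array, with the other WD-SCC arrays at 6.099 to 6.416 (0.830 of the range). Rnf139 was 3.825 on the second OT7 WD-SCC array, where the other WD-SCC arrays lay at 4.328 to 4.405 (0.867 of the range). Scarb1 was 7.987 on the OT14 PD-SCC array, and the remaining PD-SCC arrays lay at 6.681 to 6.869 (0.856 of the range). Sult2b1 was 3.882 on the OT14 PD-SCC array, below the 4.230 to 4.301 of the others (0.831 of the range). The OT14 arrays gave 4 of these 5 values.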

How the results depend on the processing

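The single call among the 8 genes, Fdft1, was lost in 16 of 19 alternatives. The count of 1 became 0 without lineage as the replicate block, with lineage as a random block, with averaged OT7 arrays, with a filter on dim genes, after cyclic loess, after scaling to the 75th percentile, with a trended and robust prior, with array weights and without any 1 array (0 to 0 over the 8 arrays left out). It became 3 (Fdft1, Idi1 and Hmgcs1) when values under the control were raised to it, and stayed 1 with either other choice of probe sets. Raising values sets dim genes to a control that is itself lower on PD-SCC arrays, so 10511 of all genes were then called, 8325 of them lower in PD-SCC. The count over all genes, 2154, was 2123 without the replicate block, 401 with averaged OT7 arrays and 886 to 1689 with 1 array left out. Within a lineage the count of 0 among the 8 genes became 1 (Dhcr7 in each) with the filter on dim genes, the scaling to the 75th percentile and the trended prior, and 3 with raised values. Hmgcs1, 0.12, was -0.088 after scaling to the 75th percentile, which shifts every gene alike, and -0.42 with raised values, which is the control's own stage difference and no measure of Hmgcs1. Directions turned for 2 other genes. With 1 array left out, Dhcr7 lay between -0.36 and 1.32 and Insig1 between -0.27 and 0.35, Insig1 turning positive without an OT15 array (0.35) or the second OT7 WD-SCC array (0.07), and the cause was not tested. Leaving out either array of OT14 or OT15 removes that lineage from the stage contrast. Sqle, Idi1, Cyp51 and Srebf2 kept their sign in all 19 alternatives, though after cyclic loess Cyp51 was 0.066 and Srebf2 0.024. Signal over background limits Hmgcs1 fully, Idi1 and Sqle in part, and Fdft1 and Dhcr7 on the OT15 WD-SCC array.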

Other observations

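Products of the mevalonate arm other than sterols are used by prenyl transferases and by dolichol and coenzyme Q synthesis. Of 10 genes measured in this list, 1 rose and 1 fell, with a median difference of 0.40. The share called was 20%, against 12.6% of all genes called in either direction. Rabggtb and Rabggta encode the beta and alpha subunits of the Rab geranylgeranyl transferase. Rabggtb read 8.47 and 7.58 in OT7, 8.22 in OT14 and 6.82 in OT15 on PD-SCC arrays, against 7.07 and 6.2 in OT7, 6.89 in OT14 and 5.32 in OT15 on WD-SCC arrays. It was higher in PD-SCC within every lineage, with a difference of 1.41 (SE 0.27, adjusted p = 0.0292, limma). Rabggta read 6.44 and 6.64 in OT7, 6.48 in OT14 and 7.28 in OT15 on PD-SCC arrays, against 8.18 and 7.99 in OT7, 8.66 in OT14 and 7.60 in OT15 on WD-SCC arrays, without overlap. Rabggta fell by 1.40 (SE 0.30, adjusted p = 0.0369, limma). Both calls were easily lost. For Rabggtb the adjusted p was 0.0935 without lineage as a block, 0.0891 with it as a random block, 0.0913 after cyclic loess and 0.0669 to 0.0844 without the first OT7 PD-SCC array, the second OT7 WD-SCC array or an array of OT14 or OT15, and for Rabggta it was 0.174 with the OT7 arrays of a stage averaged and 0.0840 to 0.109 without an array of OT7 or OT14.

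In the efflux, LXR and esterification list, 0 of 7 genes passed the threshold (limma; 2 of 7 at an unadjusted p under 0.05), with a median of -0.10. Nr1h3, the gene of the oxysterol receptor LXR-alpha, averaged 4.40 ± 0.09 in PD-SCC and 4.73 ± 0.10 in WD-SCC, without overlap (adjusted p = 0.0874, limma). Apoe averaged 4.84 ± 0.11 in PD-SCC and 5.17 ± 0.17 in WD-SCC, also without overlap (adjusted p = 0.117, limma). Such a lack of overlap was found in 24.1% of all genes. Abcg1, a sterol exporter gene, averaged 5.69 ± 1.39 in PD-SCC and 6.29 ± 1.70 in WD-SCC, which overlap widely.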
